A study of Homo sapiens with 12 samples.

Results

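The change that human cardiac cultures underwent between day 8 and day 12 while exposed to F-53B was measured in 4 of the 12 libraries of the series. Libraries were assigned by their labels: 2 were made at day 8 and 2 at day 12, all from H9, a human embryonic stem cell line, kept under 60 µM F-53B from day 0 of cardiac differentiation onward. F-53B, a chlorinated polyfluoroalkyl ether sulfonate, is used as a substitute for the perfluoroalkyl sulfonate PFOS. The other 8 libraries have the same layout, with DMSO as the vehicle or 60 µM PFOS at both days, and no genotype differs between groups. All 12 are total RNA of whole cultures, sequenced on the BGISEQ-500, so a lower value may stand for fewer cells of a type or for less RNA per cell, and these cannot be told apart in any result below. The labels number the 2 libraries of a group without naming separate cultures, so the p-values rest on the spread of these samples alone, and that spread may be technical. Of 19040 genes with values, 14080 with at least 1 FPKM (fragments scaled to transcript length and to the library's total) in at least 2 libraries were tested.

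In this kind of culture, stem cells pass through mesoderm to cardiac progenitors and then to beating cardiomyocytes, whose sarcomere genes climb as the contractile machinery is assembled. The epicardium, the mesothelial sheet over the heart, comes from a related progenitor. It is marked by the transcription factors WT1, TBX18 and TCF21 and by ALDH1A2, the enzyme that makes retinoic acid, and it gives rise to smooth muscle and fibroblasts after epithelial-mesenchymal transition. WNT signals act at successive stages and with opposite effects, first favouring mesoderm and later restraining cardiomyocyte commitment.

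FPKM totals of the F-53B libraries were 398218 and 389249 at day 8 and 419116 and 400584 at day 12, replicate 1 first as everywhere below, within the range of 389249 to 439918 over the series. How many fragments lie behind a value is unknown, because the analysis started from FPKM. The value steps of 33 short histone genes were 0.971 to 0.986 in the F-53B libraries, relative to each gene's mean step over the libraries. Only values near a whole multiple of a gene's smallest value were kept, so these steps cannot show whether depths were alike. Some defining markers of cardiomyocytes (TNNT2 and MYL7) and of epicardium (WT1, TBX18 and UPK3B) stood between 77.5 and 1451 FPKM in the F-53B libraries. Other markers of these cell types lay below that range at day 8, with values given below. Among them, NKX2-5 read near 1 FPKM and ALDH1A2 below 1 FPKM at day 8, and MYH6 and TCF21 were low as well. The pluripotency factors POU5F1, NANOG and UTF1 did not pass the test between the days, and SOX2 reached at most 0.21 FPKM.

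Between day 8 and day 12 under F-53B, 4227 genes (30.0% of those tested) passed the limma test at an adjusted p under 0.05. Of these, 2249 rose (16.0%) and 1978 fell (14.0%), and a log2 change of at least 1 was reached by 381 that rose and 285 that fell. The libraries of day 8 and day 12 did not overlap for all 4227 called genes. Where days are described as apart below, this adds nothing to the call. The median log2 change of all tested genes was 0.02. Log2 changes are differences of group means of log2(FPKM + 1), which understates the change of genes near 0, and SE is the standard error of the model. Where a library is left out, its group holds a single library. The p-values and counts of such a fit rest on the spread of the other groups. With the FPKM of each library scaled to the same total, the direction split turned from 53.2% rising to 44.2% rising, with 1902 genes up and 2403 down. Without day 8 replicate 2 the count of genes passing was 2491, the lowest over the 4 libraries left out in turn.

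The 15 largest rises among called genes with a mean of at least 5 FPKM included epicardial and retinoic acid genes (ALDH1A2, ITLN1), the WNT antagonist SFRP2, contractile genes of cardiomyocytes (MYH6, MYL3, SMPX, MYOM1, TNNC1, MYBPC3) and the atrial hormone NPPA, and also TRH, TM4SF1 and TMEM173, which are in none of these groups. The largest falls, in order, were those of SHISA3, PAEP, KEL, PROK1, GFRA2, STAC and NODAL. Cell cycle and cholesterol synthesis genes fell across their lists. In the plot of 8 genes by library, the day 12 F-53B points stand apart from those at day 8 for ALDH1A2, ITLN1, SFRP2, UPK1B and MYH6, and the day 12 pair of MYH6 and of TNNT2 is spread.

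**Figure D1:**
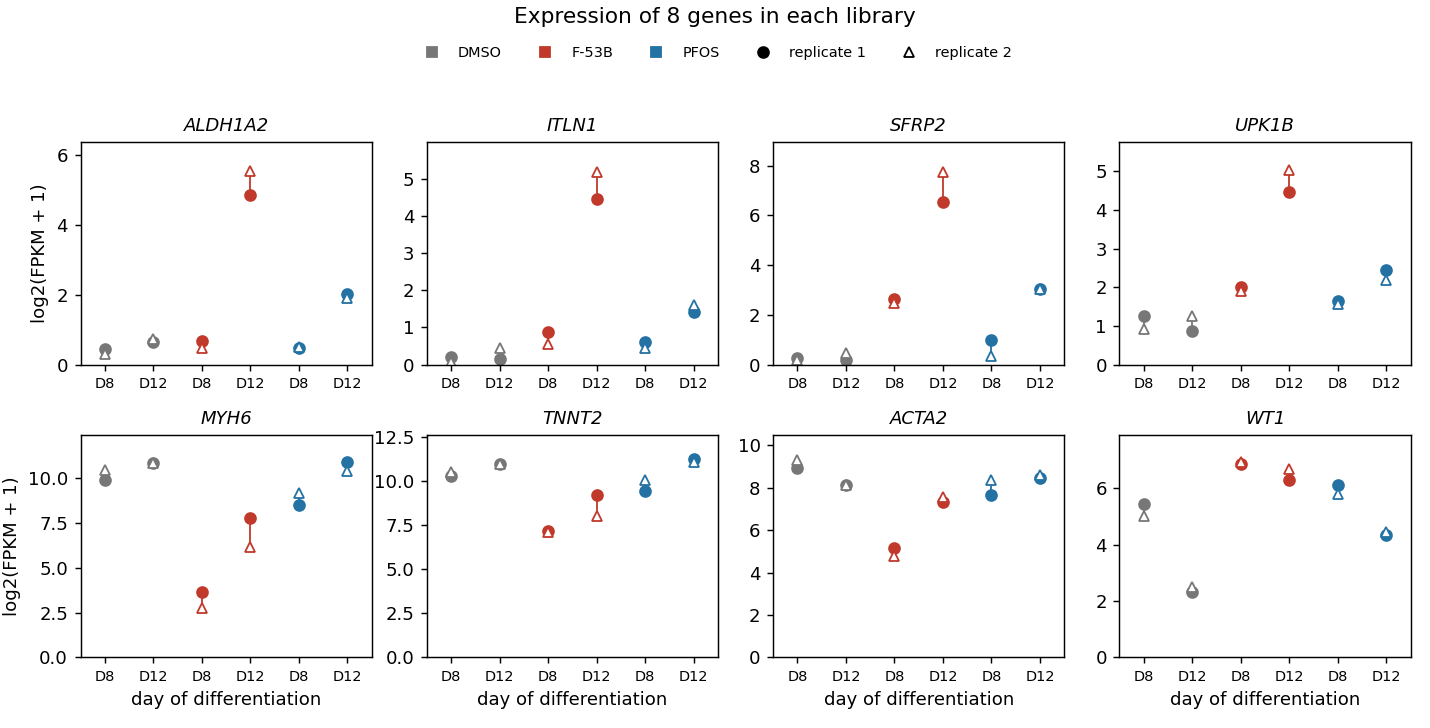
Log2(FPKM + 1) of 8 genes in the 12 libraries, by treatment (colour) and day (horizontal axis), with a filled circle for replicate 1, a triangle for replicate 2 and a line joining the pair. At day 12 with F-53B, replicate 2 is the higher for ALDH1A2 (27.8 and 45.0 FPKM), ITLN1, SFRP2 and UPK1B and replicate 1 for MYH6 (212 and 71.1 FPKM) and TNNT2.

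The 2 day 12 libraries differed by over 2-fold on the log2(FPKM + 1) scale at 134 genes, against 10 for the day 8 F-53B pair and 15 to 39 for the other 4 pairs. By the median absolute log2 difference they were not the farthest pair, at 0.115 against 0.136 for the day 12 PFOS pair. Replicate 1 was the higher of the pair at 113 of these genes (0.803% of those tested) and replicate 2 at 21 (0.149%). Of 85 tested genes in the 4 cardiomyocyte lists (sarcomere, transcription factors, calcium handling and channels, hormones and energy), 30 were over 2-fold higher in replicate 1 and 0 in replicate 2. At a gap of 0.5 on the log2 scale, replicate 1 was higher for 24 of 27 sarcomere genes (3.35% of all tested genes), with a median gap of 1.29 against 0.11 between the day 8 libraries and 0.01 over all genes. Among 20 epicardial and mesothelial genes, 0 were over 2-fold apart, and replicate 2 was higher by the smaller gap of 0.5 for 10 (1.79% of all tested genes) and replicate 1 for 1, and the median gap was -0.46. Cell cycle genes showed 0 of 30 members beyond it in favour of replicate 1 and a median of -0.03.

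CKM, the muscle creatine kinase, read 24.2 FPKM in day 12 replicate 1 and 3.76 FPKM in replicate 2. KLHL41, a muscle protein that stabilises sarcomeres, read 18.3 and 3.29 FPKM, TRH, the thyrotropin-releasing hormone precursor, 94.7 and 19.2 FPKM, and the cardiac transcription factor NKX2-5 19.5 and 4.93 FPKM, in the same order. Each was highest in replicate 1. The opposite order held for FRZB, a secreted WNT antagonist (10 and 37.2 FPKM), for the matrix gene NPNT (5.48 and 22.3 FPKM), for the membrane peptidase MME (2.01 and 9.13 FPKM) and for the small proteoglycans DCN (13.8 and 35.0 FPKM) and LUM (108 and 222 FPKM). These genes had levels at day 8 of 37.5 and 47.0 FPKM for FRZB, 22.2 and 27.2 FPKM for NPNT, 3.48 and 3.97 FPKM for MME, 13.5 and 14.3 FPKM for DCN and 255 and 280.4 FPKM for LUM. None of the 5 passed the test over the days, and their values changed with the day 12 library used.

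Taking each day 12 library alone against the day 8 pair, MME had a log2 change of -0.65 in replicate 1 and of 1.1 in replicate 2. NEBL, a Z-disc protein, turned the other way, with 0.66 in replicate 1 and -0.525 in replicate 2. FRZB and NPNT had log2 changes of -1.96 and -1.98 in replicate 1 and of -0.17 and -0.13 in replicate 2. DCN had -0.01 and 1.27 in the same order. A fit with a single day 12 library holds no measure of the spread at day 12. Of the 4227 genes called with both libraries, 2501 passed in each alone. Which cells or steps the gap comes from was not tested, and it moves with the sarcomere and epicardial results given below.

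**Figure D2:**
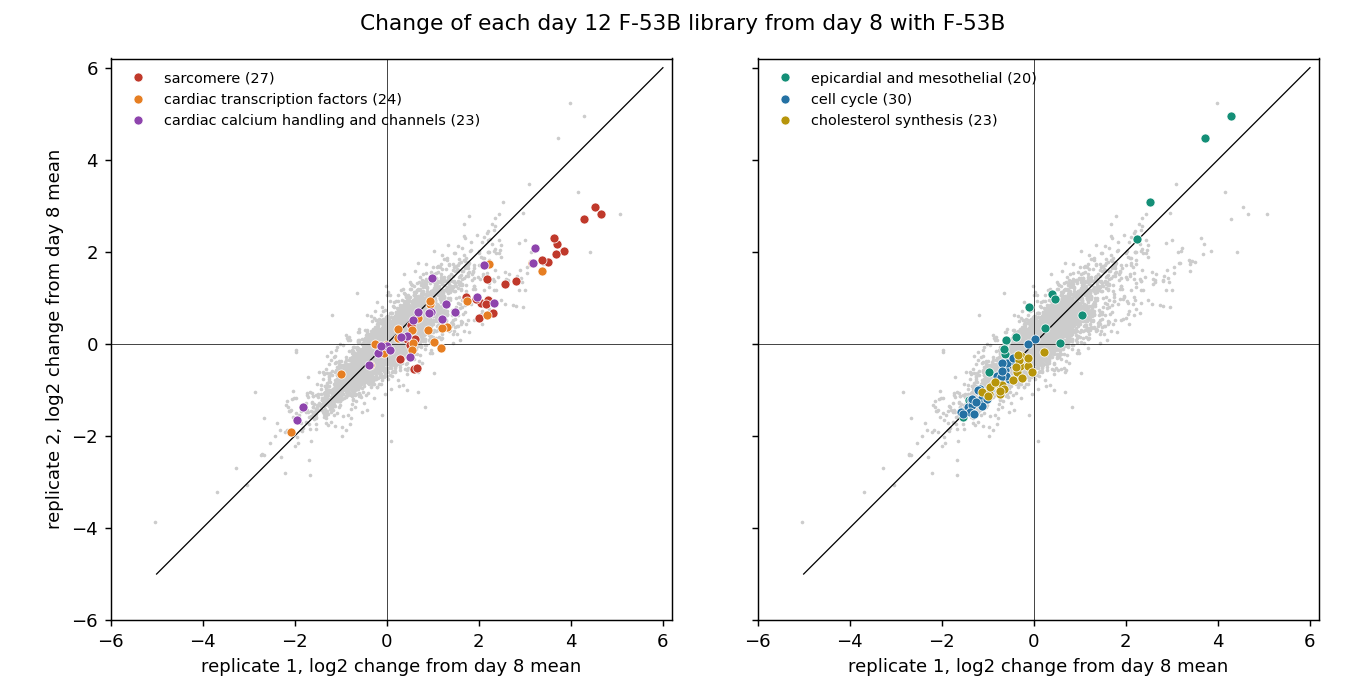
Log2 change of day 12 replicate 1 (horizontal axis) and replicate 2 (vertical axis) from the mean of the day 8 F-53B libraries, in log2(FPKM + 1), with 1 point per tested gene and the members of 6 lists coloured in 2 panels. Of 27 sarcomere genes, 26 have the larger value in replicate 1 and lie below the line of equal change, while cell cycle genes lie along it.

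Epicardial and mesothelial genes split into some that rose, ALDH1A2 and TCF21 among them, and some that fell, KRT19 and CALB2 among them. Others, including the transcription factors WT1 and TBX18, did not pass the test. Of 20 genes tested, 6 rose (against 16.0% of all tested genes), 5 fell (against 14.0%) and 9 did not pass, with a median log2 change of 0.09 against 0.02 over all genes. ALDH1A2 (chr15:57953424-58497866, minus strand in GRCh38), which converts retinal to retinoic acid, read 0.58 and 0.40 FPKM at day 8 and 27.8 and 45.0 FPKM at day 12. Both day 12 libraries lie far above both day 8 libraries, and the log2 change was 4.62 (SE 0.18, adjusted p = 2.56e-07). ITLN1, the secreted lectin omentin of mesothelium, went from 0.84 and 0.47 FPKM to 20.8 and 35.6 FPKM, a log2 change of 4.10 (SE 0.21, adjusted p = 4.17e-07). UPK1B, a uroplakin of mesothelial and urothelial membranes, went from 3.01 and 2.72 FPKM to 21.3 and 31.7 FPKM, a log2 change of 2.81 (SE 0.19, adjusted p = 2.03e-06). For these 3 genes replicate 2 was the higher day 12 library, opposite to the sarcomere genes.

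SEMA3D, a guidance factor secreted by epicardium, rose from 1.15 and 1.0 FPKM to 8.87 and 9.05 FPKM. TCF21, a factor of epicardial cells fated to become fibroblasts, rose from 29.9 and 31.1 FPKM to 64.0 and 47.8 FPKM (log2 change 0.84, SE 0.15, adjusted p = 0.00165), and the endocytic receptor LRP2 from 33.2 and 35.5 to 47.4 and 68.4 FPKM. The 3 genes were higher in each day 12 library than in either day 8 library. WT1, the zinc finger factor that marks epicardium, read 116 and 123 FPKM at day 8 and 77.5 and 103 FPKM at day 12, and TBX18 read 117 and 117 and then 138 and 149 FPKM. UPK3B read 101.5 and 124 FPKM at day 8 and 149 and 239 FPKM at day 12. Neither WT1 (log2 change -0.42, SE 0.16, adjusted p = 0.0798) nor TBX18 (log2 change 0.29, SE 0.25, adjusted p = 0.419) nor UPK3B (log2 change 0.74, SE 0.26, adjusted p = 0.0649) passed the test. Without day 12 replicate 2 the log2 change of WT1 was -0.62, and without replicate 1 that of UPK3B was 1.08. TBX18 passed when the 4 F-53B libraries were fitted alone (adjusted p = 0.0348).

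Among the members that fell, KRT19, a keratin of simple epithelia, went from 437 and 434 FPKM to 164 and 187 FPKM, and CALB2, the mesothelial calcium buffer calretinin, from 8.57 and 10.7 to 2.65 and 2.53 FPKM. Without day 12 replicate 2, 8 members fell.

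These levels took a different course from vehicle. In DMSO, WT1 read 42.5 and 31.6 FPKM at day 8 and 4.06 and 4.65 FPKM at day 12, TBX18 41.7 and 23.0 and then 13.7 and 15.5 FPKM, and UPK3B 17.5 and 14.6 and then 4.11 and 3.92 FPKM. The F-53B change was above the DMSO change for 15 of the 20 epicardial genes and below it for 0, where 9.35% of all tested genes were above and 7.02% below. The difference between the changes was 4.29 (SE 0.25, adjusted p = 3.6e-06) for ALDH1A2, 3.94 (SE 0.30, adjusted p = 2.42e-05) for ITLN1, 2.40 (SE 0.23, adjusted p = 0.000103) for WT1 and 2.50 (SE 0.37, adjusted p = 0.00282) for UPK3B. KRT19 fell with DMSO as well, with a log2 change of -1.23, and the difference was -0.08 (SE 0.19, adjusted p = 0.811). Against the change with PFOS, 9 of 20 were above (7.66% of all tested genes) and 0 below (5.01%). ALDH1A2 stood at 0.40 and 0.42 and then 3.07 and 2.71 FPKM with PFOS, and the difference of its change from that with F-53B was 3.15 (SE 0.25, adjusted p = 9.62e-05).

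Retinoic acid genes, from uptake of retinol to receptors, were called in 8 of 11 cases, with a median log2 change of 0.47. Of these, 6 were up (54.5% of the 11, against 16.0% of all tested genes) and 2 down (18.2%, against 14.0%). RDH10, which oxidises retinol to the substrate of ALDH1A2, rose from 12.1 and 10.9 FPKM to 55.0 and 64.7 FPKM (log2 change 2.28, SE 0.14, adjusted p = 1.47e-06). STRA6, the membrane receptor that takes up retinol, fell from 44.5 and 44.6 FPKM to 14.8 and 11.7 FPKM (log2 change -1.68, SE 0.13, adjusted p = 4.6e-06), while in DMSO it read 23.1 and 22.4 and then 22.5 and 20.3 FPKM. The difference from the DMSO change was -1.6 (SE 0.19, adjusted p = 0.000234) for STRA6 and 0.96 (SE 0.21, adjusted p = 0.00894) for RDH10. CRABP2, which carries retinoic acid to the nucleus, rose from 8.58 and 7.61 to 19.4 and 14.8 FPKM (log2 change 0.98, SE 0.23, adjusted p = 0.012), but its call was lost without day 12 replicate 1 (adjusted p = 0.0664) and without day 8 replicate 2 (0.084). The count of rising members was 3 when the one or the other of these libraries was left out. RARB, a receptor and itself a target of retinoic acid, had a log2 change of 0.64 (SE 0.21, adjusted p = 0.0394), and of 0.45 without day 12 replicate 1 (adjusted p = 0.22).

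Sarcomere genes rose in 18 of 27 cases (66.7%, against 16.0% of all tested genes) and fell in 0 (against 14.0%). The median log2 change was 1.52. MYH6 (chr14:23381990-23408277, minus strand), the fast atrial myosin heavy chain, read 11.5 and 5.76 FPKM at day 8 and 212 and 71.1 FPKM at day 12. Both day 12 libraries were above both day 8 libraries, and the log2 change was 3.75 (SE 0.54, adjusted p = 0.00187). TNNT2, cardiac troponin T, read 143 and 137 FPKM and then 585 and 259.6 FPKM, a log2 change of 1.47 (SE 0.36, adjusted p = 0.0185). Its call was lost without day 8 replicate 1 (adjusted p = 0.0786), without day 8 replicate 2 (0.0957) and with the 4 libraries fitted alone (0.0502). MYL3, the essential light chain, rose from 6.39 and 5.68 FPKM to 175 and 48.6 FPKM, a log2 change of 3.73 (SE 0.52, adjusted p = 0.00161). TNNI3, the adult form of cardiac troponin I, rose with a log2 change of 1.79 (SE 0.22, adjusted p = 0.000319). TNNI1, the fetal form, read 102 and 102 FPKM and then 124 and 81.2 FPKM and did not pass (log2 change -0.02, SE 0.20, adjusted p = 0.946).

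MYL7, the atrial regulatory light chain, was among the highest of these by FPKM, at 978 and 935 FPKM at day 8 and 1451 and 651 FPKM at day 12. The day 12 libraries lie on either side of the day 8 pair, and the log2 change was 0.02 (SE 0.36, adjusted p = 0.971). The summed FPKM of the 27 genes was 2465 and 2354 at day 8 and 5254 and 2601 at day 12, so the day 12 sum was well above day 8 in replicate 1 and near it in replicate 2. Taken alone, replicate 1 gave 23 members up and 0 down with a median log2 change of 2.18, and replicate 2 gave 15 up and 1 down with 0.97. Without day 8 replicate 2, 10 members passed.

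At day 12 these levels were below those of vehicle, where MYH6 read 930.4 and 1365 FPKM at day 8 and 1795 and 1784 FPKM at day 12 and TNNT2 2028 and 2041 FPKM at day 12. Over the days, the median log2 change of the 27 genes was 1.17 with DMSO, 1.38 with PFOS and 1.52 with F-53B. The F-53B change was above the DMSO change for 2 (9.35% of all tested genes) and below it for 2 (7.02%). These counts turned with the day 12 library: 5 above and 8 below without replicate 1, and 11 above and 2 below without replicate 2. MYH6 was above by 3.09 (SE 0.77, adjusted p = 0.0348), a call that was lost in 7 of its alternatives (adjusted p up to 0.117), and TNNI3 by 1.54 (SE 0.31, adjusted p = 0.0102). For TNNT2 the difference was 0.88 (SE 0.51, adjusted p = 0.294).

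Cardiac transcription factors rose in 12 of 24 cases, against 16.0% of all tested genes. They fell in 3, a share near the 14.0% of all tested genes. The median log2 change was 0.54. NKX2-5, the homeobox factor of the early heart, read 0.88 and 1.06 FPKM and then 19.5 and 4.93 FPKM, a log2 change of 2.49 (SE 0.55, adjusted p = 0.0128). Its call was lost without day 8 replicate 1 (adjusted p = 0.0663) and without day 8 replicate 2 (0.0613). MEF2C, a MADS-box activator of muscle genes, rose from 1.95 and 1.35 FPKM to 11.3 and 7.83 FPKM (log2 change 1.99, SE 0.17, adjusted p = 1.12e-05). The paired factors of the first and second heart fields moved apart. HAND1 (chr5:154474972-154478264, minus strand) fell from 279 and 298 FPKM to 67.2 and 75.4 FPKM (log2 change -2.0, SE 0.087, adjusted p = 2.95e-07), and HAND2 rose from 49.7 and 50.7 FPKM to 96.8 and 92.3 FPKM (log2 change 0.90, SE 0.063, adjusted p = 1.98e-06). For both genes the 2 day 12 libraries differed by little, in contrast to NKX2-5. The F-53B change lay below the DMSO change for HAND1, with a difference of -1.05 (SE 0.12, adjusted p = 0.000223), and above it for MEF2C, by 1.58 (SE 0.24, adjusted p = 0.00139), and for HAND2, by 0.46 (SE 0.090, adjusted p = 0.00491). GATA4 and NR2F2 did not pass, with log2 changes of -0.13 each. Without day 8 replicate 1, 7 members rose.

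Calcium handling and channel genes rose in 13 of 23 cases (56.5%, against 16.0% of all tested genes) and fell in 3 (13.0%, against 14.0%). SLC8A1, the sodium-calcium exchanger, went from 5.63 and 3.82 FPKM to 51.6 and 23.1 FPKM (log2 change 2.66, SE 0.35, adjusted p = 0.00107). TRDN, which anchors calsequestrin at the release channel, and PLN, the brake on the SERCA pump, rose by 2.48 (SE 0.43, adjusted p = 0.00447) and 1.91 (SE 0.31, adjusted p = 0.00245). KCNJ3, a subunit of the atrial acetylcholine-gated potassium channel, fell from 20.5 and 21.0 FPKM to 5.2 and 7.46 FPKM (log2 change -1.59, SE 0.15, adjusted p = 1.75e-05), and the atrial SERCA regulator SLN had a log2 change of -1.79 (SE 0.23, adjusted p = 0.0003). Both also fell with DMSO, with log2 changes of -2.72 and -2.10. Hormone and energy genes rose in 6 of 11 cases (54.5%) and fell in 0. NPPA, the atrial natriuretic peptide, went from 0.54 and 0.54 FPKM to 26.3 and 14.2 FPKM (log2 change 3.72, SE 0.47, adjusted p = 0.000922). CKM went from 0.18 and 0.19 FPKM to the split values given above, a log2 change of 3.21 (SE 0.72, adjusted p = 0.0143), with 4.41 in replicate 1 alone and 2.01 in replicate 2 alone. Its call was lost without day 8 replicate 1 (0.0708) and without day 8 replicate 2 (0.0728), as was that of the oxygen store MB without day 8 replicate 2 (0.0702). Without that last library 2 members of the list rose, and without day 8 replicate 1, 3 rose.

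NPPB, the ventricular natriuretic peptide, differed from NPPA. It read 2.73 and 2.16 FPKM at day 8 and 2.73 and 1.11 FPKM at day 12 with F-53B, and 10.9 and 19.2 and then 121 and 113 FPKM with DMSO. The difference between the changes was -3.21 (SE 0.53, adjusted p = 0.00583), and the F-53B change itself did not pass.

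Of 23 matrix and fibroblast genes, 7 rose (30.4%, against 16.0% of all tested genes) and 9 fell (39.1%, against 14.0%). The median log2 change was 0.11. FN1, fibronectin, went from 255 and 231 FPKM to 569.6 and 531 FPKM (log2 change 1.18, SE 0.094, adjusted p = 4.64e-06), the microfibril gene FBN1 from 9.75 and 10.3 to 26.0 and 27.4 FPKM (log2 change 1.33, SE 0.096, adjusted p = 2.58e-06) and the proteoglycan BGN from 8.68 and 8.66 to 27.9 and 25.6 FPKM (log2 change 1.52, SE 0.082, adjusted p = 4.17e-07). As for every called gene, the days did not overlap, and for all 3 the day 12 libraries were close to each other. LOX, which crosslinks collagen and elastin, rose with a log2 change of 1.79 (SE 0.13, adjusted p = 2.89e-06). The largest fall was that of FBLN1, the fibre-associated glycoprotein fibulin (log2 change -1.27, SE 0.088, adjusted p = 1.91e-06). COL1A1 went from 1082 and 1154 FPKM to 552 and 574 FPKM (log2 change -0.99, SE 0.16, adjusted p = 0.00096) and COL3A1 from 1096 and 1077 to 651 and 834 FPKM (log2 change -0.56, SE 0.11, adjusted p = 0.00273), and COL1A2, COL5A1, COL5A2 and COL6A1 fell as well.

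The same chains fell further with vehicle: COL3A1 read 722 and 697 FPKM at day 8 and 122 and 130.2 FPKM at day 12 in DMSO, and the difference between the changes was 1.93 (SE 0.16, adjusted p = 2.69e-05). FN1 fell with DMSO, from 799 and 969 FPKM to 421 and 410.4 FPKM, so that its difference was 2.25 (SE 0.13, adjusted p = 3.6e-06). Over the list, 15 of 23 genes were above the DMSO change (9.35% of all tested genes) and 14 above the PFOS change (7.66%), with 0 below either. The median log2 change was -1.16 with DMSO and -0.83 with PFOS.

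Smooth muscle genes rose in 6 of 13 cases (46.2%, against 16.0% of all tested genes) and fell in 2 (15.4%, against 14.0%). ACTA2, smooth muscle alpha-actin (chr10:88935074-88991339, minus strand), went from 34.5 and 26.9 FPKM to 160.3 and 186 FPKM (log2 change 2.46, SE 0.23, adjusted p = 6.11e-05), while in DMSO it read 488 and 639 FPKM at day 8 and 285 and 281 FPKM at day 12. The difference was 3.44 (SE 0.33, adjusted p = 0.000197). MYH11, the smooth muscle myosin heavy chain, rose from 0.21 and 0.21 to 3.09 and 2.99 FPKM (log2 change 1.74, SE 0.12, adjusted p = 1.63e-06) and ACTG2, the enteric smooth muscle actin, from 0.30 and 0.09 to 2.85 and 4.86 FPKM (log2 change 2.0, SE 0.19, adjusted p = 1.53e-05). TAGLN, an actin-binding protein of early smooth muscle, rose from 67.5 and 63.4 FPKM to 156 and 171 FPKM (log2 change 1.31, SE 0.11, adjusted p = 6.41e-06). The differentiation genes CNN1, DES and MYLK did not pass. Muscle actins are close copies, so reads could be exchanged between ACTA2, ACTG2, ACTC1 and ACTA1.

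The promoter of ACTG2 is shown because it is the smooth muscle riser with CArG boxes, the sites bound by serum response factor, close to its start. The 250 bases before the start are given from RefSeq on GRCh38.p14 (chr2:73892758-73893007, plus strand), with both CArG boxes in capitals:

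ACTG2: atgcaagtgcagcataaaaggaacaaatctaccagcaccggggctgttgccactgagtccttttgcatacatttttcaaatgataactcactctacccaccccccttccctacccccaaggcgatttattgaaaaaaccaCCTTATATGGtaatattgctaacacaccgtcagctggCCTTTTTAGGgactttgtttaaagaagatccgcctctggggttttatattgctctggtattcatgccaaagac

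CArG boxes were present in a window of 3 of the 10 smooth muscle genes matched in RefSeq (ACTG2, MYLK and SMTN, 30.0%). The same held for 4 of 19 sarcomere genes (ACTC1, LDB3, MYL7 and MYOM1, 21.1%). Of all 35116 windows of the same length, searched on both strands, 1.16% held a CArG box. A gene was counted if any of its windows matched, so shares of genes and of single windows are not like for like. Of these 7 genes, ACTG2, ACTC1, LDB3 and MYOM1 rose, SMTN fell, and MYLK and MYL7 did not pass. A match is a description of the letters and not a binding site.

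Proliferation genes fell. Of 30 cell cycle genes, 27 fell and 0 rose, with a median log2 change of -1.03, and 27 or 28 fell in every alternative setting. CDC20, the activator of the anaphase-promoting complex, went from 33.7 and 35.6 FPKM to 11.2 and 11.5 FPKM (log2 change -1.53, SE 0.10, adjusted p = 1.47e-06), PLK1, polo-like kinase, from 25.7 and 25.9 to 9.18 and 8.53 FPKM (log2 change -1.44, SE 0.079, adjusted p = 4.17e-07) and TOP2A, the topoisomerase of replicating chromosomes, from 48.3 and 48.2 to 17.3 and 17.9 FPKM (log2 change -1.4, SE 0.12, adjusted p = 6.29e-06). In each case the replicates of a day lay close together, and the days did not overlap, as for every called gene. AURKB, UBE2C, CDK1 and MKI67 fell by log2 changes of -1.53, -1.41, -1.34 and -1.29. The log2 change was -0.64 for PCNA, the sliding clamp of DNA replication, and -0.42 for the helicase subunit MCM3. E2F1, MCM7 and CCNE2 did not pass, at -0.38, -0.07 and 0.06.

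The list median was -0.61 with DMSO and -0.85 with PFOS. The F-53B change lay below the DMSO change for 10 of 30 genes (7.02% of all tested genes) and above it for 0 (9.35%), and below the PFOS change for 3 (5.01%). Differences from DMSO were -0.37 (SE 0.11, adjusted p = 0.0455) for AURKB and -0.24 (SE 0.14, adjusted p = 0.282) for CDC20, the latter not passing.

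The promoters of CDC20 and PLK1 are shown because both hold, within the 250 bases before the start, the CCAAT box bound by NF-Y and the TTTGAA element called CHR, a pairing known from genes expressed in late cell cycle phases. Both are on the plus strand of GRCh38.p14 in RefSeq, CDC20 at chr1:43358731-43358980 and PLK1 at chr16:23678639-23678888. Capitals mark CCAAT and TTTGAA, or TTCAAA where the element is read on the other strand, and no 2 matches overlap:

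CDC20: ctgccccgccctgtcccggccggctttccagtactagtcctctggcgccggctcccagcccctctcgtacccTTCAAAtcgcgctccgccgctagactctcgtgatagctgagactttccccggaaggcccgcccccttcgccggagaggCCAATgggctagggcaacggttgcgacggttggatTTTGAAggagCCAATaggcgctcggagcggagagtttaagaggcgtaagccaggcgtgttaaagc
PLK1: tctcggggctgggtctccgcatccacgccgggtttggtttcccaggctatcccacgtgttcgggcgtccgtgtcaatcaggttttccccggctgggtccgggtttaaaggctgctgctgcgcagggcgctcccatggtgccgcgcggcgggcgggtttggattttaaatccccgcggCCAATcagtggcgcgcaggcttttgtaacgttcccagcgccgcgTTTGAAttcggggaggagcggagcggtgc

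CDC20 held 2 CCAAT and 2 TTTGAA matches, and PLK1 held 1 of each. Over the 23 cell cycle genes matched in RefSeq, 18 had CCAAT (78.3%), 7 had TTTGAA (30.4%) and 6 had both (26.1%: CCNB2, CDC20, CDK1, MKI67, PLK1 and TOP2A). Over all 35116 windows the shares were 32.0%, 13.3% and 4.69%, on both strands. As above, a gene was counted if any of its windows matched, so shares of genes and of windows are unlike measures. The 6 genes with both fell by log2 changes between -1.53 and -1.22.

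Cholesterol and fatty acid synthesis genes, which are targets of the SREBP transcription factors, also fell. Of 23, 18 passed downward (78.3%, against 14.0% of all tested genes) and 0 upward (against 16.0%), with a median log2 change of -0.62. HMGCS1, which makes the precursor HMG-CoA, went from 70.0 and 69.8 FPKM to 35.0 and 32.4 FPKM (log2 change -1.03, SE 0.11, adjusted p = 4.21e-05). SREBF2, which encodes the SREBP of the cholesterol branch, went from 60.2 and 62.1 FPKM to 38.5 and 30.6 FPKM (log2 change -0.81, SE 0.096, adjusted p = 7.42e-05). CYP51A1, which removes a methyl group from lanosterol, and the fatty acid synthase FASN had log2 changes of -0.94 and -0.84. MVK, DHCR7, SC5D and STARD4 were among the members that did not pass.

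This fall set F-53B apart from vehicle. In DMSO HMGCS1 read 73.2 and 55.6 FPKM at day 8 and 89.0 and 89.1 FPKM at day 12, and SREBF2 85.1 and 86.8 and then 95.9 and 97.0 FPKM. The F-53B change lay below the DMSO change for 19 of 23 genes (7.02% of all tested genes) and above it for 0 (9.35%). Differences were -1.51 (SE 0.16, adjusted p = 0.000109) for HMGCS1, -1.26 (SE 0.13, adjusted p = 9.98e-05) for CYP51A1 and -0.98 (SE 0.14, adjusted p = 0.000621) for SREBF2. The median change of the list was 0.22 with DMSO. Against PFOS, whose list median was -0.20, 7 of 23 were below (5.01% of all tested genes) and 0 above (7.66%).

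The promoter of SREBF2 is shown because, of 16 matched genes of this list, SREBF2 is the 1 with a window that holds the sterol regulatory element letters TCACCCCAC. It is given on the plus strand of GRCh38.p14 (chr22:41832855-41833104), with that element and a CCAAT box on the other strand (ATTGG) in capitals, which do not overlap:

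SREBF2: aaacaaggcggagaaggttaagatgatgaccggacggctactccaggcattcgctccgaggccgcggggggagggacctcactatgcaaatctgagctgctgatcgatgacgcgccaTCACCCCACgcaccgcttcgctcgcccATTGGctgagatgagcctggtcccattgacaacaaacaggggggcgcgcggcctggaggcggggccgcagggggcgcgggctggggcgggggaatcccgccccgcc

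These letters are in 127 of 35116 windows (0.362%), on both strands. CCAAT was found in any window of 14 of the 16 genes (87.5%) and in 32.0% of all single windows, which are unlike measures. The absence of these letters from a window of this length says nothing of the other genes.

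**Figure D3:**
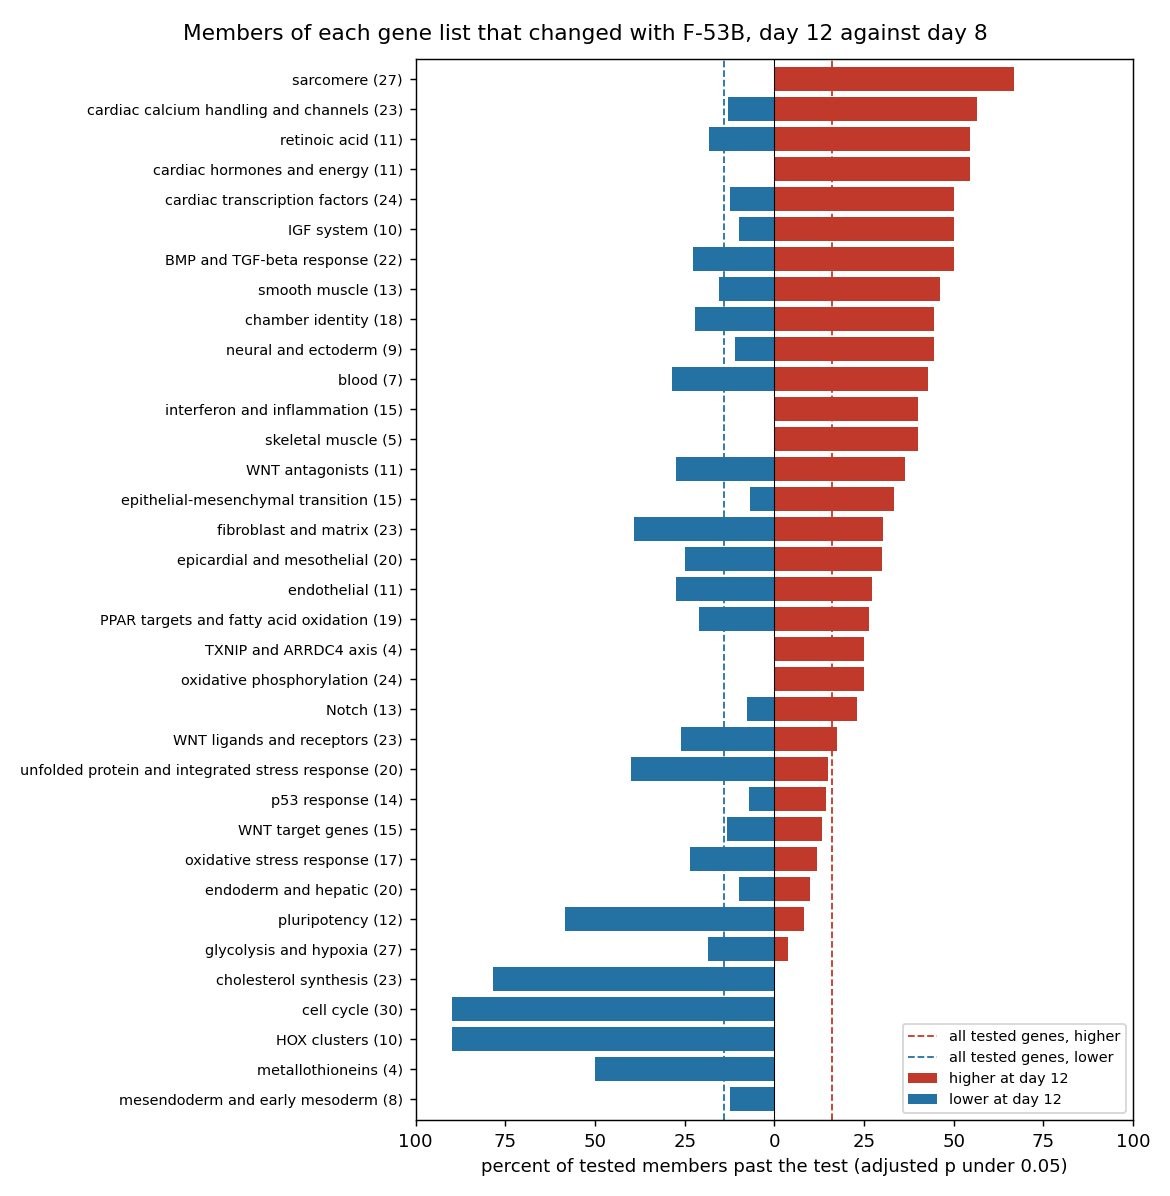
Percent of the tested members of each list (number in brackets) that were higher (right) or lower (left) at day 12 than at day 8 with F-53B at an adjusted p under 0.05, with dashed lines at the shares of all tested genes (16.0% and 14.0%). The sarcomere list has 66.7% up and 0 down, and the cell cycle and cholesterol synthesis lists have 90.0% and 78.3% down and 0 up.

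WNT antagonists held the largest fall and, after ALDH1A2, the largest rise among called genes with a mean of at least 5 FPKM. SFRP2 (chr4:153780592-153789120, minus strand), a frizzled-related protein that binds WNT ligands, read 5.17 and 4.51 FPKM at day 8 and 91.6 and 217 FPKM at day 12 (log2 change 4.61, SE 0.36, adjusted p = 3.04e-05), and DMSO libraries did not exceed 0.37 FPKM. SHISA3 (chr4:42397839-42402487, plus strand), which retains frizzled receptors inside the cell, fell from 56.1 and 68.7 FPKM to 0.92 and 3.29 FPKM (log2 change -4.46, SE 0.32, adjusted p = 2.21e-05). DKK1, which blocks the LRP co-receptors and is itself a WNT target, rose from 8.73 and 7.16 FPKM to 48.9 and 31.9 FPKM (log2 change 2.18, SE 0.22, adjusted p = 9.5e-05). For SFRP2 the difference from the DMSO change was 4.54 (SE 0.50, adjusted p = 0.00064) and for DKK1 1.56 (SE 0.32, adjusted p = 0.00978). SHISA3 fell with DMSO too, with a log2 change of -5.12, and the difference did not pass (difference 0.67, SE 0.45, adjusted p = 0.368). Of 11 antagonists, 4 rose (36.4%, against 16.0% of all tested genes) and 3 fell (27.3%, against 14.0%).

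Among 23 ligands and receptors, 4 rose (17.4%, against 16.0% of all tested genes) and 6 fell (26.1%, against 14.0%). WNT2, a ligand of heart mesoderm, fell from 6.92 and 7.32 FPKM to 1.84 and 2.21 FPKM (log2 change -1.43, SE 0.16, adjusted p = 6.86e-05) and WNT2B rose from 2.17 and 2.52 to 6.58 and 7.86 FPKM (log2 change 1.29, SE 0.16, adjusted p = 9.88e-05). In DMSO the same ligands read 4.56 and 6.78 and then 10.3 and 8.80 FPKM for WNT2 and 0.89 and 0.92 and then 0.51 and 0.71 FPKM for WNT2B, opposite in order. The differences were -2.10 (SE 0.23, adjusted p = 0.000162) and 1.54 (SE 0.22, adjusted p = 0.000871). RSPO1, a secreted enhancer of WNT signalling, fell from 81.3 and 89.8 FPKM to 19.4 and 30.7 FPKM (log2 change -1.76, SE 0.24, adjusted p = 0.000738), and the receptor FZD1 rose from 12.7 and 11 FPKM to 34.2 and 27.4 FPKM (log2 change 1.3, SE 0.14, adjusted p = 3.51e-05). FZD7, a receptor of stem cells and mesoderm, read 66.3 and 62.5 FPKM and then 62.0 and 57.1 FPKM and did not pass, whereas in DMSO it read 77 and 73.1 FPKM and then 19.8 and 17.9 FPKM. Its difference was 1.83 (SE 0.11, adjusted p = 3.6e-06).

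The 15 target genes of beta-catenin gave 2 up and 2 down, near the 16.0% and 14.0% of all tested genes, and a median log2 change of -0.05. AXIN2, the negative feedback gene most used as a readout, had a log2 change of 0.03 (SE 0.093, adjusted p = 0.826), and LEF1, a nuclear partner of beta-catenin, one of -0.33 (SE 0.14, adjusted p = 0.111). Without day 12 replicate 1 the log2 change of LEF1 was -0.57. Those that changed were DKK1 and CCND1 upward (log2 change 1.44, SE 0.12, adjusted p = 4.85e-06 for CCND1, cyclin D1) and MSX1 and RNF43 downward, with MSX1 going from 24.1 and 27.9 FPKM to 4.01 and 5.78 FPKM.

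BMP and TGF-beta genes rose in 11 of 22 cases and fell in 5, against 16.0% and 14.0% of all tested genes. The median log2 change was 0.44. ID4, an inhibitor of helix-loop-helix factors downstream of BMP, rose from 14.7 and 13.7 FPKM to 76.3 and 62.5 FPKM (log2 change 2.21, SE 0.15, adjusted p = 1.98e-06), above the DMSO change by 1.88 (SE 0.21, adjusted p = 0.000195). TGFB3 rose from 2.88 and 3.35 to 7.73 and 12.1 FPKM (log2 change 1.38, SE 0.15, adjusted p = 5.65e-05). BMP4, the ligand that induces mesoderm, fell from 74.6 and 79.8 FPKM to 44.1 and 40.1 FPKM (log2 change -0.86, SE 0.086, adjusted p = 2.39e-05), less than with DMSO (difference 1.37, SE 0.12, adjusted p = 4.92e-05). The number rising was 5 without day 8 replicate 2, 6 without day 8 replicate 1 or with the 4 libraries fitted alone, and 7 without day 12 replicate 1.

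In the IGF system, binding proteins rose: IGFBP2, IGFBP3, IGFBP4, IGFBP5 and IGFBP7 passed upward out of 10 genes tested. IGFBP7 went from 1.83 and 2.09 FPKM to 13.9 and 15.4 FPKM (log2 change 2.40, SE 0.31, adjusted p = 0.000727). IGF2, the fetal growth factor, was among the highest genes by FPKM, at 2306 and 2568 FPKM at day 8 and 1305 and 1845 FPKM at day 12 (log2 change -0.65, SE 0.18, adjusted p = 0.0228). Its call was lost without day 12 replicate 1 (adjusted p = 0.136) and when the one or the other day 8 library was left out. In DMSO it read 1366 and 1087 FPKM and then 236 and 230.3 FPKM, and the difference was 1.73 (SE 0.26, adjusted p = 0.00172).

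Genes of other lineages were checked for the cells such cultures can also hold. The endoderm and hepatic list had 2 of 20 genes up and 2 down, shares below the 16.0% and 14.0% of all tested genes. Its median log2 change was 0.31 against 1.59 with DMSO. AFP, the fetal liver protein, read 0.06 and 0.03 FPKM and then 8.18 and 3.17 FPKM (log2 change 2.57, SE 0.36, adjusted p = 0.00142), and in DMSO 1.53 and 1.67 and then 312 and 222 FPKM, a difference of -4.10 (SE 0.51, adjusted p = 0.00179). APOA1, the main HDL protein, fell from 33.0 and 29.1 FPKM to 13.8 and 8.23 FPKM (log2 change -1.45, SE 0.22, adjusted p = 0.00113), while in DMSO it read 17.2 and 15.6 and then 56.9 and 38.6 FPKM, a difference of -2.91 (SE 0.32, adjusted p = 0.000406). In all, 9 of the 20 were below the DMSO change (7.02% of all tested genes) and 0 above (9.35%). The list's rising count moved with the setting, to 9 at a pseudocount of 0.1. Its summed FPKM was 18.98 to 36.23 in the F-53B libraries.

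Endothelial genes gave 3 up and 3 down of 11, against 16.0% and 14.0% of all tested genes, and the number rising was 1 without day 12 replicate 1 or when the one or the other day 8 library was left out. ENG, the co-receptor endoglin, rose from 2.26 and 2.19 to 12.2 and 10.9 FPKM (log2 change 1.96, SE 0.10, adjusted p = 3.7e-07), and KDR, the VEGF receptor also present on heart progenitors, fell from 42.9 and 45.6 to 16.8 and 20.1 FPKM (log2 change -1.22, SE 0.099, adjusted p = 5.11e-06). The endothelial markers CDH5, PECAM1 and TIE1 did not pass, and VWF reached at most 0.30 FPKM. Blood genes gave 3 up and 2 down of 7, all at low FPKM, with 1 up when the one or the other day 8 library was left out. The embryonic globin HBE1 fell from 5.21 and 5.45 to 0.29 and 0.15 FPKM, and HBA1, an alpha-globin with a near-identical copy, had a log2 change of 2.16 (SE 0.26, adjusted p = 0.00013). Neural genes gave 4 up and 1 down of 9. STMN2, a microtubule regulator of neurons, rose from 0.43 and 0.53 to 7.05 and 6.05 FPKM with F-53B and from 0.42 and 0.81 to 5.18 and 6.55 FPKM with DMSO.

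Outside these lists, the largest rises included TRH, from 2.34 and 1.42 FPKM to the split values above (log2 change 3.95, SE 0.63, adjusted p = 0.0029). TM4SF1, a membrane protein of endothelial and mesenchymal cells, rose from 1.63 and 1.5 to 20.9 and 27.5 FPKM (log2 change 3.28, SE 0.14, adjusted p = 2.95e-07). TMEM173, which encodes STING, rose from 1.14 and 0.93 to 14.8 and 13.5 FPKM (log2 change 2.90, SE 0.14, adjusted p = 3.42e-07). TM4SF1 and TMEM173 were close between the replicates, and TRH was not. The largest falls included KEL, the Kell blood group protein, from 99 and 101.3 FPKM to 11.3 and 11.1 FPKM (log2 change -3.05, SE 0.14, adjusted p = 3.29e-07), PAEP, the lipocalin glycodelin, from 24.9 and 20.9 to 0.84 and 1.58 FPKM (log2 change -3.45, SE 0.25, adjusted p = 5.9e-06), and PROK1, a secreted prokineticin, from 14.5 and 14.6 to 0.60 and 1.41 FPKM (log2 change -2.99, SE 0.20, adjusted p = 1.59e-06). GFRA2, STAC, LCN1, WFIKKN1, SPP1, APLNR, PITX3 and RIMS1 completed the 15 largest falls together with SHISA3, NODAL, LIN28A and MSX1, with log2 changes between -2.56 and -2.05 for these 8. The calls of SPP1 and WFIKKN1 were lost with the 4 libraries fitted alone with a term for the replicate number (adjusted p = 0.0592 and 0.0728).

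Across all tested genes, the F-53B change was above the DMSO change for 1317 genes (9.35%) and below it for 989 (7.02%), and above the PFOS change for 1078 (7.66%) and below it for 705 (5.01%). The direction of the F-53B change was shared with DMSO by 3372 of the 4227 called genes (79.8%), and across genes the changes correlated with r = 0.535 for DMSO and r = 0.665 for PFOS. These r values are across genes, which are not independent replicates, and none of the 3 treatments shares a library with another. SERPINE3, a serpin family member, read 54.1 and 63.6 FPKM and then 48.9 and 73.7 FPKM with F-53B and 30.6 and 25.5 and then 2.46 and 2.92 FPKM with DMSO. NPY, the neuropeptide Y precursor, read 27.6 and 21.0 and then 22.6 and 33.0 FPKM with F-53B and 34.2 and 69.7 and then 3.12 and 2.70 FPKM with DMSO. Neither passed the test over days with F-53B. In the other direction, S100A14, an epithelial calcium-binding protein, did not exceed 0.17 FPKM with F-53B and read 46.8 and 26.8 FPKM at day 12 with DMSO. CORIN, the protease that activates natriuretic peptides, read 15.6 and 15.4 FPKM and then 7.45 and 3.13 FPKM with F-53B (log2 change -1.48, SE 0.33, adjusted p = 0.0117) and 24.6 and 37.7 and then 75.0 and 78.0 FPKM with DMSO. The call of its fall with F-53B was lost when the one or the other day 8 library was left out (adjusted p = 0.0623 without replicate 1 and 0.0654 without replicate 2).

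**Figure D4:**
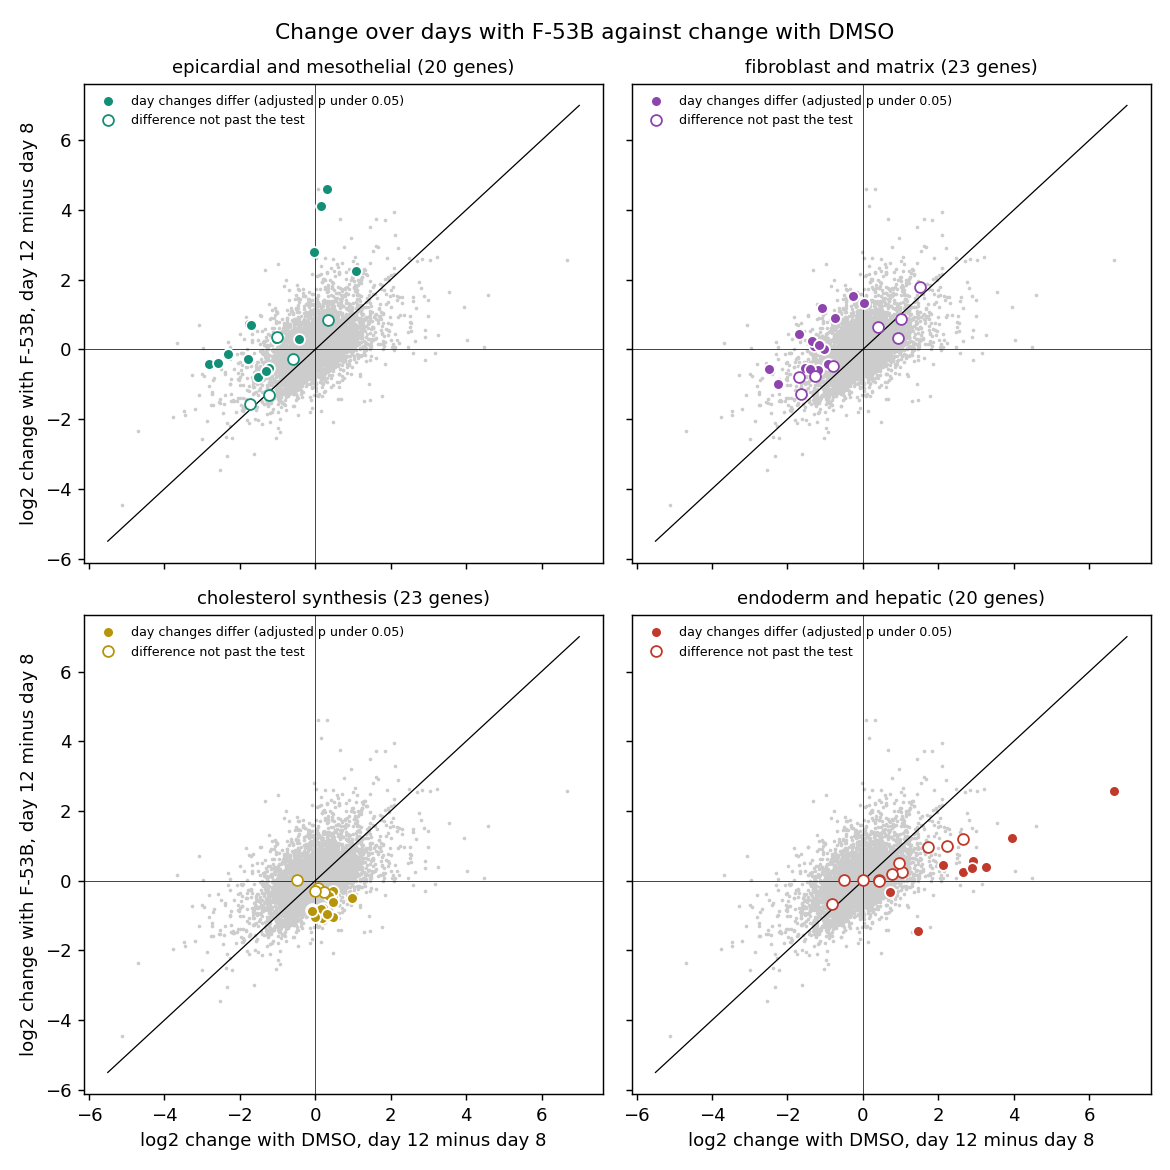
Log2 change from day 8 to day 12 with DMSO (horizontal axis) and with F-53B (vertical axis), 1 grey point per tested gene, with the members of 1 list coloured in each of 4 panels and filled where the changes differ by the test. Most epicardial and matrix members lie above the line of equal change, 15 of 20 and 15 of 23 of them filled, and most cholesterol synthesis and hepatic members below it, 19 of 23 and 9 of 20 filled.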

How the data were processed

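RNA of 12 libraries in 6 groups of 2 was analysed, grouped by the labels, and the 4 F-53B libraries carry the comparison. The authors deposited FPKM per gene and library with 2 decimals, per the file headers. Per the submitters' processing notes, the tools were HISAT, Bowtie2 and RSEM on GRCh38 patch p11, with tool versions and order not given in the sources used here. Each file has 8 to 10 rows that name no gene, which were left out. No counts were used, so depth and counting error are unknown, and near-identical copies could exchange fragments (MYH6 and MYH7, the muscle actins, HBA1 and HBA2, MT1X and MT2A, EIF3C and EIF3CL). Of 20042 genes listed, 1002 hold no value.

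Values were taken as log2(FPKM + 1) without further scaling. In R 4.3.3, limma 3.58.1 fitted group means to all 12 libraries, leaving 6 residual degrees of freedom, and moderated the variances (empirical Bayes, robust, trended on the mean). Tests are two-sided, with Benjamini-Hochberg adjustment over 14080 genes and a threshold of 0.05. Differences between the day changes of treatments are interaction contrasts of that model. The fit was tested on simulated data. An exact permutation test of 2 libraries against 2 cannot go below p = 0.333 and was not used.

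The comparison and the 35 gene lists, written from textbook knowledge, were chosen with earlier results of these data known, and lists are described by counts and medians only. Named genes were the 15 largest rises and 15 largest falls with a mean of at least 5 FPKM, for each list at most 3 genes by adjusted p, 12 genes always given, the largest differences from DMSO (8 and 8) and PFOS (5 and 5), and the 10 and 10 genes farthest apart between the day 12 libraries. Other list members were named after their values were seen, and some that the rule picks are not reported here by name. Gene locations are from GENCODE 29, joined by symbol. Alternatives were equal FPKM totals, median-of-ratios scaling, a pseudocount of 0.1, no filter, library weights, a term for the replicate number, the compared libraries alone and leaving out each library.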

Additional observations from a re-analysis of the deposited data

Results flagged for a closer look

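The change from day 8 to day 12 with F-53B differed from the change with DMSO, by a test of the difference itself, at 2306 genes. Among the named genes the F-53B change was above the DMSO change by 4.54 for SFRP2, 4.29 for ALDH1A2, 3.94 for ITLN1, 3.85 for NPY, 3.44 for ACTA2, 3.09 for MYH6, 3.01 for SERPINE3 and 2.83 for UPK1B on the log2 scale. It was below the DMSO change with differences of -4.40 for S100A14, -4.10 for AFP, -3.21 for NPPB, -3.02 for PENK, -2.91 for APOA1, -2.78 for CORIN, -2.70 for PRSS35 and -2.10 for WNT2. PENK, the enkephalin precursor, rose with both, from 10.2 and 10 to 40.2 and 25.4 FPKM with F-53B and from 1.67 and 0.79 to 52.8 and 50.7 FPKM with DMSO.

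Against PFOS the change with F-53B differed at 1783 genes by the same kind of test. It was above the PFOS change by 3.15 for ALDH1A2, 3.12 for ITLN1, 2.67 for the potassium channel subunit KCNIP2, 2.63 for CRHBP, which binds corticotropin-releasing hormone, and 2.24 for SFRP2. It was below with differences of -2.40 for CORIN, -1.97 for APOA1, -1.93 for NAV1, -1.88 for the potassium channel KCNQ5 and -1.88 for LOXL4, a lysyl oxidase. Of 15 alternatives, the call against PFOS was lost in 8 for SFRP2 (adjusted p up to 0.347), 4 for CORIN (up to 0.0682), 8 for KCNIP2 (up to 0.135) and 6 for CRHBP (up to 0.109).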

How the results depend on the processing

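Over 12 alternatives, 130 of the 156 named genes called over the days passed in every one and 26 were lost in at least 1, while 16 of 29 named genes that did not pass did so in at least 1. Many of the named genes were picked as the strongest of this same comparison, so these counts do not stand for all called genes. Direction turned for MME (1.102 without day 12 replicate 1, -0.65 without replicate 2) and NEBL (-0.525 without day 12 replicate 1, 0.66 without replicate 2), and the cause was not tested. Leaving out 1 library at a time gave 2491 to 3801 genes for the day change, 1326 to 2413 for the difference from DMSO and 646 to 2163 for the difference from PFOS. The last count was 1076 with only the compared libraries, and the cause was not tested. Over 2-fold gaps between the day 12 libraries numbered 378 at a pseudocount of 0.1 and 210 with FPKM scaled to equal totals. Same-numbered F-53B libraries shared deviations across genes only weakly (r = 0.186, -0.118 with DMSO and 0.107 with PFOS), so the numbers were not taken as pairs. With a replicate block the counts were 4032, 2094 and 1548, and 4293 for the 4 F-53B libraries alone. What depth limits cannot be given from FPKM alone.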

Other observations

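Of 12 pluripotency genes, 7 fell and 1 rose, against 14.0% and 16.0% of all tested genes, with a median log2 change of -0.36: the RNA-binding protein LIN28A went from 67.1 and 65.2 FPKM to 15.9 and 13.5 FPKM (log2 change -2.10, SE 0.094, adjusted p = 2.95e-07), and it fell with DMSO as well (log2 change -2.33). NODAL, the ligand that patterns mesendoderm, went from 12.1 and 9.0 to 1.46 and 0.64 FPKM (log2 change -2.51, SE 0.17, adjusted p = 1.8e-06). It was the 1 of 8 mesendoderm genes that passed (12.5%), against 30.0% of all tested genes. All 9 HOX genes that passed of 10 tested fell, with a median of -0.65 against -1.17 with DMSO, among them HOXB8 from 8.33 and 10.4 to 1.4 and 2.77 FPKM. The F-53B change was above the DMSO change for 5 of these 10 and below it for 0, but for 3 and 3 without day 12 replicate 2. SHOX2, a factor of the sinus node, rose from 0.02 and 0.04 FPKM to 3.76 and 3.13 FPKM with F-53B, and read 0.02 and 0.07 FPKM at day 12 with DMSO.

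Counts of energy genes depended on the day 12 library used. Over all tested genes, 16.0% rose and 14.0% fell. Of 24 oxidative phosphorylation genes, 6 rose and 0 fell, but 1 rose without day 12 replicate 1, 1 when the one or the other day 8 library was left out, and 14 without day 12 replicate 2. All 24 were higher in day 12 replicate 1 than in replicate 2. Of 27 glycolysis and hypoxia genes, 5 fell and 1 rose. Without day 12 replicate 1 the counts were 7 down and 0 up, without replicate 2 they were 4 and 4, and without day 8 replicate 2 they were 3 and 0. Among those that fell were PFKP, a phosphofructokinase, going from 95.3 and 96.7 FPKM to 53 and 32.2 FPKM (log2 change -1.2, SE 0.19, adjusted p = 0.00105) and HK2, hexokinase 2, from 24.0 and 26.4 to 6.76 and 8.47 FPKM (log2 change -1.61, SE 0.32, adjusted p = 0.00713). The HK2 call was lost without day 8 replicate 2 (adjusted p = 0.0518). LDHA, lactate dehydrogenase, read 58.8 and 56.7 FPKM and then 161 and 70.7 FPKM and did not pass. Chemokines rose: CXCL12 went from 27.8 and 24.6 to 117 and 98.6 FPKM (log2 change 2.0, SE 0.10, adjusted p = 3.7e-07) and CCL2 from 2.77 and 3.40 to 15.4 and 15 FPKM (log2 change 1.99, SE 0.14, adjusted p = 1.98e-06), among 6 up and 0 down of 15 interferon and inflammation genes, of which 3 rose without day 8 replicate 2.

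Of 20 unfolded protein and integrated stress genes, 3 rose and 8 fell, against 16.0% and 14.0% of all tested genes, and 1 rose without day 12 replicate 1 or without day 8 replicate 2. Those that fell included PHGDH, the first enzyme of serine synthesis, going from 401 and 418 FPKM to 147 and 163 FPKM and the stress factor ATF3 from 16.9 and 15.3 to 8.05 and 8.39 FPKM, while ATF3 in DMSO read 8.81 and 8.73 and then 13.5 and 16.4 FPKM. Of 17 oxidative stress genes 2 rose (11.8%) and 4 fell (23.5%), NQO1 among the latter (log2 change -0.81, SE 0.097, adjusted p = 8.91e-05), and 1 rose in each fit without day 12 replicate 1 or 1 of the day 8 libraries. Of 14 p53 genes 2 rose (14.3%) and 1 fell (7.14%), near the shares of all genes, and CDKN1A, the cell cycle inhibitor p21, went from 5.29 and 4.24 to 7.82 and 10.3 FPKM (log2 change 0.80, SE 0.13, adjusted p = 0.000762). PPAR and fatty acid oxidation genes gave 5 up (26.3%) and 4 down (21.1%) of 19, against 16.0% and 14.0% of all tested genes. Among them ANGPTL4 went from 4.66 and 3.95 to 10.51 and 10.4 FPKM. Transition genes gave 5 up (33.3%) and 1 down (6.67%) of 15: the mesenchymal factor TWIST1 (2.06) and the epithelial splicing factor ESRP1 (1.6) both rose. Notch genes gave 3 up (23.1%) and 1 down (7.69%) of 13, against 16.0% and 14.0% of all tested genes. The rising count was lower without day 12 replicate 1 or when the one or the other day 8 library was left out.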
